A study of Homo sapiens with 6 samples.

Results

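The 10 genes described here encode the inducible parts of the machinery that makes and loads peptides for MHC class I: PSMB8, PSMB9, PSMB10, PSME1, PSME2, TAP1, TAP2, TAPBP, ERAP1 and ERAP2. They were chosen by gene symbol for what their proteins do, though with earlier results of these data known. They are 10 of the 57820 genes in the deposited table. All 10 were among the 15605 genes that passed the filter for low counts. RNA was sequenced from M14 cells, an established human melanoma line that carries a doxycycline-inducible shRNA against STAG2, a subunit of the cohesin complex. WT cells were grown without doxycycline and KD cells with it for 5 days, both under puromycin, with 3 libraries in each condition. WT cells therefore carry the same shRNA cassette, and the effects of doxycycline and of the knockdown cannot be told apart in these libraries. In these libraries the knockdown rests on a single shRNA in a single cell line.

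In the ordinary proteasome, proteins are cut by the catalytic subunits PSMB5, PSMB6 and PSMB7. Interferons induce PSMB8, PSMB9 and PSMB10, which take the places of these subunits in newly built particles to form the immunoproteasome, and PA28, a cap made of PSME1 and PSME2 that opens the core. The peptides enter the endoplasmic reticulum through the TAP1 and TAP2 transporter, are trimmed there by the aminopeptidases ERAP1 and ERAP2, and are placed on class I molecules with the help of tapasin, the product of TAPBP. Melanoma cells that lack parts of this route present fewer peptides to T cells.

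TAP1, PSMB9 and TAP2 were higher in KD than in WT, by 8.31-fold, 3.16-fold and 2.55-fold. The other 7 genes did not pass the threshold, with estimates between 1.11-fold for PSMB10 and 1.79-fold for PSMB8. With edgeR and a threshold of 0.05 on the adjusted p, 3 of the 10 genes were thus called higher in KD, where 2.59% of all tested genes were called in either direction and 1.75% were called higher in KD. With the replicate number as a block, 4 of the 10 were called, PSMB8 being the fourth, against a background of 9.52% in either direction and 5.10% higher in KD. DESeq2 called the same 4 genes, beside 6.33% of all genes in either direction and 3.52% higher in KD, and limma-voom called the same 3 as edgeR, beside 2.64% and 1.76%. The median log2 fold change of the 10 genes was 0.46, beside −0.03 over all tested genes, and all 10 estimates were above 0, as were 48.0% of those over all tested genes. In 5 of the 10 genes every KD library lay above every WT library, which held for 11.8% of the tested genes, and 22.3% of the tested genes had conditions that did not overlap in either direction. Between libraries with the same replicate number, KD was above WT in all 3 pairs for 9 of the 10 genes, PSMB10 being the exception, and for 23.0% of the tested genes.

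Most of the 10 promoters share one short sequence. The interferon-stimulated response element (ISRE) is the site bound by complexes that hold IRF9 and STAT2, and its core letters, GAAA followed by any 2 bases and again GAAA on either strand, were searched in windows from 250 bases before to 50 bases after each RefSeq gene start. The letters were found in 9 of the 10 genes, and in 4.38% of the 27305 genes that have a window (3.57% of windows). All 10 genes matched by symbol and had 14 windows, since PSMB8, TAP1, ERAP1 and ERAP2 have 2 annotated starts each. In each of those genes the ISRE letters were in the window of only 1 of the 2 starts. The matched stretches follow because they show how alike the letters are among genes that were called and genes that were not. Each reads 5′ to 3′ on the strand of its gene, with the ISRE letters in capitals; the windows come from RefSeq on GRCh38.p14, and each stretch was placed by exact match on GRCh37, the build of the counts.
TAP1: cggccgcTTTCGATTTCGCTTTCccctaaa
TAP2: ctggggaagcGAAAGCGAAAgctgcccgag
PSMB8: gatctgtggcTTTCGCTTTCacttcctcct
PSMB10: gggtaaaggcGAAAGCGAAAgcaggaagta
PSME1: gccctaccgcTTTCGCTTTCccttcgcggt
PSME2: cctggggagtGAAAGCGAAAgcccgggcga
TAPBP: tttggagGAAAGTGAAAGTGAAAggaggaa
ERAP1: cgggctccacTTTCACTTTCggtcctgggg
ERAP2: tcttagaacaGAAAGTGAAAgcaaaagtaa

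On GRCh37 these stretches lie at chr6:32821593-32821622 for TAP1, chr6:32806555-32806584 for TAP2 and chr6:32811809-32811838 for PSMB8. They lie at chr16:67970755-67970784 for PSMB10, chr14:24605398-24605427 for PSME1 and chr14:24615828-24615857 for PSME2. Those of TAPBP, ERAP1 and ERAP2 are at chr6:33281853-33281882, chr5:96143627-96143656 and chr5:96212164-96212193. PSME1 and ERAP2 are on the plus strand and the other 7 of these genes on the minus strand. Distances are from the start whose window held the letters. In 8 of the 9 genes the letters began less than 60 bases before that start or just after it. TAP1 held them farthest out, from 134 to 119 bases before that start. TAP1 and TAPBP each held 2 overlapping copies within 16 bases. Of the 9 genes with the letters, TAP1 and TAP2 were called higher and 7 were not called. The letters thus stood in genes with large and with small differences. TAP2, PSME2 and PSMB10 hold the same 10 letters, with estimates of 2.55-fold, 1.36-fold and 1.11-fold. On the other strand these 10 letters are in PSMB8, in PSME1 and in one of the TAP1 copies. Those genes had estimates of 1.79-fold, 1.27-fold and 8.31-fold. Whether the letters go with the size of the change was not tested.

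PSMB9 is the gene without the letters in its window, although it was called. Its RefSeq start, at 32821969 on chromosome 6, lies 488 bases from that of TAP1, at 32821481, on the opposite strand, and the TAP1 copies lie 354 to 369 bases before the start of PSMB9, outside the window searched. Among the 412 tested genes with a window that held the letters, 50 (12.1%) were called higher in KD, beside 1.97% of the 10141 tested genes that had a window. The share is given as a description, since holding the letters in a window does not make a site.

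**Figure D1:**
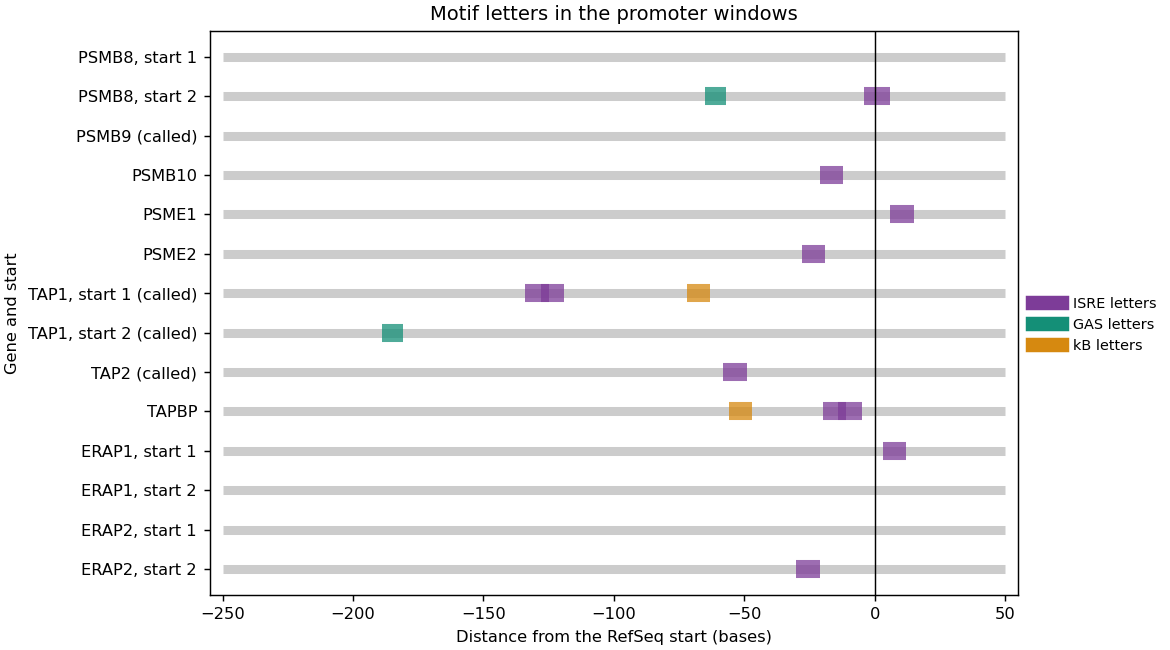
Position of motif letters in the RefSeq promoter windows of the 10 genes, in bases from each annotated start, with ISRE, GAS and kB letters as coloured blocks and a row for each start. ISRE letters appear in 9 of the 10 genes, mostly within 60 bases of an annotated start, and GAS and kB letters in 2 genes each.

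Letters of 2 further elements were searched in the same windows. The GAS, an element through which genes respond to interferon gamma, was read as TTC, any 3 bases and GAA, and the kB site of NF-kB as GGG, any 2 bases and TTTCC, on both strands. The GAS letters were in 2 of the 10 genes, PSMB8 and TAP1, and in 9.38% of all genes with a window (7.66% of windows). The kB letters were also in 2 of the 10, TAP1 and TAPBP, and in 2.33% of all genes with a window (1.91% of windows). TAP1 was the member that held all 3 kinds of letters, its GAS letters being in the window of its other start. The kB stretches are shown because one belongs to the gene with the largest change of the 10 and the other to a gene that did not pass, with the kB letters in capitals and both genes on the minus strand.
TAP1: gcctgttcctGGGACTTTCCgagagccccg
TAPBP: taaccagagcGGGGATTTCCaccgcccctc

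The kB stretches lie at chr6:32821534-32821563 and chr6:33281892-33281921 on GRCh37. No motif overlapped a motif of another kind.

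The libraries held between 24895998 and 35181733 expected counts, so a floor of 3 counts came to at most 0.121 CPM (counts in every 1000000), which covers counting error only and lies far below the levels of the 10 genes. STAG2, the shRNA's target, had 66.5, 34.7 and 28.8 CPM in WT cells and 15.9, 7.30 and 6.69 CPM in KD, without overlap (log2 fold change −2.12, SE 0.43). Its p in edgeR's quasi-likelihood test was 0.0342 after Benjamini-Hochberg adjustment over all genes tested, which is the adjusted p given throughout, and the call was lost without WT replicate 2 (0.0757) or 3 (0.0652) and without KD replicate 2 (0.168) or 3 (0.152). Replicate 1 stood apart in both conditions. PMEL, a melanosome gene, was at 3367 CPM in WT replicate 1 and at 661 and 683 CPM in the other WT libraries, and at 1253 CPM in KD replicate 1 against 357 and 364 CPM. WT replicate 1 also had 5.07% of its counts in mitochondrial genes, beside 2.12% to 2.94% elsewhere. All 8 melanocyte markers averaged at least 1 CPM in both conditions, and 7 of the 8 had a lower mean in KD, TYR being the exception. Their summed level ran from 1860 to 6304 CPM in WT and from 1194 to 2604 CPM in KD. SOX10, a melanocyte transcription factor, averaged 619 CPM in WT cells against 388 CPM in KD, and S100B 117 against 45.8 CPM, both without overlap. The part of this list in the differences of the 10 genes was not tested. WT replicate 1 was also the lowest WT library in 8 of the 10 genes. Between libraries with the same number, the rise from WT to KD was largest in replicate 1 for 8 of the 10 genes. Without replicate 1 of both conditions PSMB9, TAP1 and TAP2 were still called.

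Cells of blood origin hold immunoproteasomes without interferon, so their markers were read as well. Of 12 such markers, ITGAX and CD68 averaged at least 1 CPM in both conditions, CD4 in WT alone and LYZ in KD alone. ITGAX, an integrin of myeloid and dendritic cells, ran from 2.39 to 3.24 CPM in WT and from 11.3 to 14.8 CPM in KD, and LYZ, the lysozyme gene, averaged 0.737 CPM in WT against 2.10 CPM in KD, both without overlap. CD3E, CD8A and MS4A1 were at 0 in every library, and PTPRC, which marks all white blood cells, was at 0 in 5 libraries and at 0.58 CPM in WT replicate 3. The summed level of the list ran from 30.5 to 48.3 CPM in WT cells and from 105 to 142 CPM in KD, mostly from CD68, which averaged 33.5 CPM in WT cells and 101 CPM in KD cells and encodes a lysosomal protein that many cell types make. The part of these markers in the differences was not tested. For 6 markers of fibroblasts and endothelial cells the sum ran from 7.94 to 94.8 CPM in WT cells and from 4.48 to 27.3 CPM in KD. In bulk RNA, more RNA per cell and more cells that express a gene cannot be told apart.

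TAP1 had the largest estimate of the 10 genes. TAP1 (ENSG00000168394, chromosome 6 of GRCh37, 32812986 to 32821593) encodes one chain of the transporter that carries peptides into the endoplasmic reticulum. Its level was 51.1, 70.1 and 80.2 CPM in WT, beside 508, 513 and 653 CPM in KD. The lowest KD library was thus several times above the highest WT library. The means were 67.1 ± 14.8 CPM in WT cells and 558 ± 82.5 CPM in KD cells (SD, n = 3 in each condition). The log2 fold change was 3.06 (SE 0.24, edgeR adjusted p = 0.000177), and 98.9% of the tested genes had a smaller one. It was called whichever library was left out, with an adjusted p from edgeR of at most 0.00233. The antisense RNA of PSMB8, listed as TAPSAR1, shares 672 exonic bases with TAP1 on the opposite strand, and its counts were 4.75% of those of TAP1 in WT and 1.41% in KD.

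TAP2 (ENSG00000204267, chromosome 6, 32789610 to 32806516) encodes the partner chain. It was at 113, 149.6 and 156 CPM in WT cells and at 301, 385 and 384 CPM in KD. All KD libraries lay well above the WT range. The means were 139.6 ± 23.0 CPM in WT cells and 356 ± 48.0 CPM in KD cells (SD, n = 3 in each condition), and the log2 fold change was 1.35 (SE 0.21, edgeR adjusted p = 0.010). The call was lost without KD replicate 2 (edgeR adjusted p = 0.0617) and without KD replicate 3 (edgeR adjusted p = 0.0849). A second row named TAP2, ENSG00000250264, shares 2023 exonic bases with it on the same strand and was at 257 counts in WT replicate 3, at 222 counts in KD replicate 2 and at 0 in the other libraries. That row held 2.06% of the TAP2 counts in WT and 0.661% in KD.

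The 2 chains work as a pair, and their levels were compared within each library. The log2 ratio of TAP1 to TAP2 CPM was −1.15, −1.09 and −0.96 in WT and 0.76, 0.41 and 0.77 in KD. The ratio was thus higher in every KD library than in every WT library, by 1.71 on the log2 scale on average (two-sided p = 0.1 by an exact permutation test, the lowest possible with 3 libraries against 3). Adjusted over the 6 pairs that were compared, the exact permutation p was 0.2, so no pair could pass 0.05. Per kilobase of canonical transcript, which puts the genes on one scale, TAP1 and TAP2 overlapped in WT at 25.0 ± 5.49 and 24.7 ± 4.08 CPM per kilobase (SD, n = 3). In KD they were at 208 ± 30.7 and 63.2 ± 8.51 CPM per kilobase (SD, n = 3), with no overlap between the genes.

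**Figure D2:**
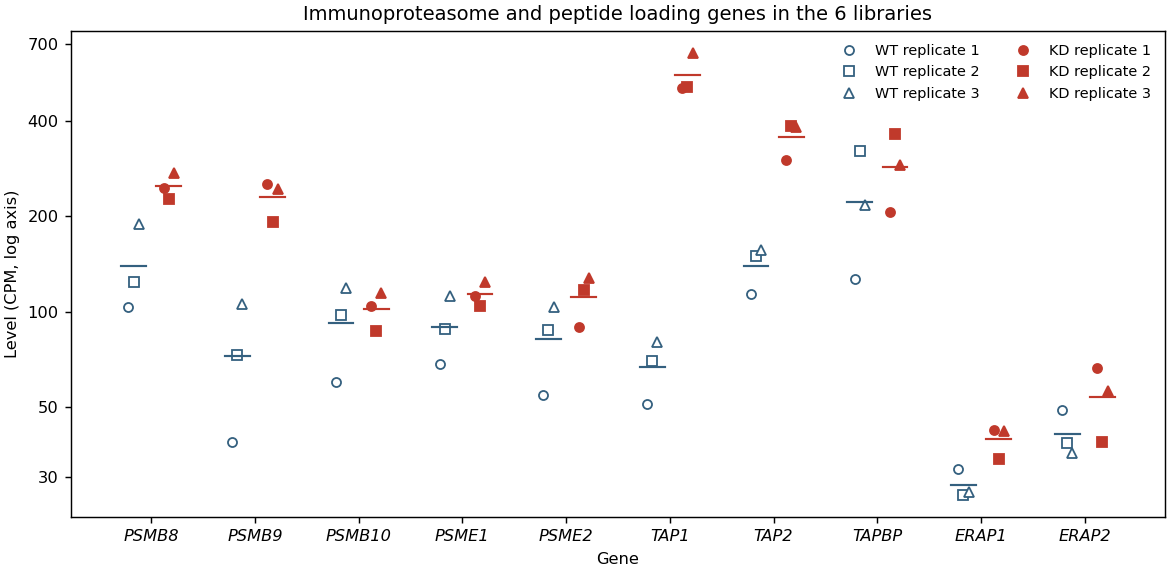
Level of each of the 10 genes in CPM on a log axis, with open symbols for WT and filled symbols for KD, a symbol shape for each replicate number and a line at each mean. TAP1, TAP2, PSMB9, PSMB8 and ERAP1 have every KD library above every WT library, and WT replicate 1 is the lowest WT library in 8 genes.

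PSMB9 was the inducible catalytic subunit that passed the threshold. PSMB9 (ENSG00000240065, chromosome 6, 32811913 to 32827628) encodes the inducible subunit that takes the place of PSMB6. It was at 38.9, 72.8 and 106 CPM in WT cells and at 253, 193 and 243 CPM in KD. The conditions did not overlap, while the WT libraries themselves spread widely, with replicate 1 lowest. The means were 72.6 ± 33.6 CPM in WT cells and 229.7 ± 32.6 CPM in KD cells (SD, n = 3 in each condition), and the log2 fold change was 1.66 (SE 0.33, edgeR adjusted p = 0.0321). The call was lost without WT replicate 2 (edgeR adjusted p = 0.116), KD replicate 1 (0.0865), KD replicate 2 (0.0884) or KD replicate 3 (0.129). Between libraries with the same number, the log2 difference was largest in replicate 1, at 2.701, and was 1.40 in replicate 2 and lower still in replicate 3. PSMB9 shares 139 exonic bases with PSMB8 on the opposite strand and 174 with TAPSAR1 on the same strand, whose counts were 4.403% of those of PSMB9 in WT and 3.41% in KD.

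PSMB8 (ENSG00000204264, chromosome 6, 32808494 to 32812456) encodes the subunit that takes the place of PSMB5. It was at 104, 124 and 189.6 CPM in WT cells and at 246, 227 and 274 CPM in KD, again without overlap. The log2 fold change was 0.84 (SE 0.24), and it did not pass the threshold without a block (edgeR adjusted p = 0.130). With the replicate block the estimate was 0.88 and the adjusted p from edgeR 0.00882, and DESeq2 also called it (adjusted p = 0.027). PSMB8 shares 602 exonic bases with TAPSAR1, which had a log2 fold change of 1.26 (edgeR adjusted p = 0.174) and counts equal to 2.32% of those of PSMB8 in WT and 3.16% in KD. The strand setting of the counting is not given in the sources used here, so reads of antisense partners cannot be told apart.

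PSMB10 (ENSG00000205220, chromosome 16, 67968409 to 67970767) encodes the subunit that takes the place of PSMB7. Its libraries overlapped, at 60.1, 97.5 and 119 CPM in WT cells and 104, 87.0 and 115 CPM in KD. The log2 fold change was 0.15 with a 95% interval from −0.43 to 0.73 (edgeR adjusted p = 0.871), and it was −0.09 without WT replicate 1. PSMB10 shares 640 exonic bases on the same strand with ENSG00000261884, whose counts were 9.37% of those of PSMB10 in WT and 5.21% in KD.

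The constitutive subunits that these replace were read in the same libraries. PSMB5 averaged 169 ± 31.0 CPM in WT cells and 172 ± 5.59 CPM in KD, PSMB6 306 ± 78.4 and 284 ± 22.3 CPM, and PSMB7 284 ± 37.02 and 298 ± 38.4 CPM (SD, n = 3 in each condition). None of the 3 was called, with log2 fold changes from −0.11 to 0.07 and adjusted p of at least 0.895 from edgeR. None had an unadjusted edgeR p under 0.05 (0 of 3), and none was called with the replicate block, DESeq2 or limma-voom. Since edgeR called 2.59% of all tested genes in either direction, 0 of 3 says little by itself.

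Ratios within a library need no scaling between libraries. The log2 ratio of PSMB9 to PSMB6 CPM was −2.56, −2.05 and −1.86 in WT and −0.04, −0.66 and −0.24 in KD, a mean rise of 1.85 in the ratio without overlap. The log2 ratio of PSMB8 to PSMB5 was −0.45, −0.40 and −0.10 in WT and 0.57, 0.37 and 0.64 in KD, a mean difference of 0.84, also without overlap. For both pairs the exact two-sided permutation p was 0.1. The log2 ratio of PSMB10 to PSMB7 overlapped, at −2.29, −1.32 and −1.40 in WT and −1.69, −1.58 and −1.37 in KD (exact permutation p = 0.9).

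Per kilobase of transcript, PSMB8 was 40.4%, 41.3% and 46.5% of the summed level of PSMB8 and PSMB5 in WT, and 58.0%, 54.5% and 59.2% in KD. PSMB9 was 12.1%, 16.3% and 18.2% of the sum of PSMB9 and PSMB6 in WT, and 44.1%, 33.8% and 40.8% in KD. PSMB10 was between 17.1% and 28.8% of the sum of PSMB10 and PSMB7 in WT and between 23.8% and 28.1% in KD. Taking the 6 catalytic subunits together, the inducible ones held 25.5 ± 3.87% of the summed level per kilobase in WT and 40.4 ± 2.60% in KD (SD, n = 3 in each condition), a description with no test. These are shares of RNA, not of assembled particles.

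**Figure D3:**
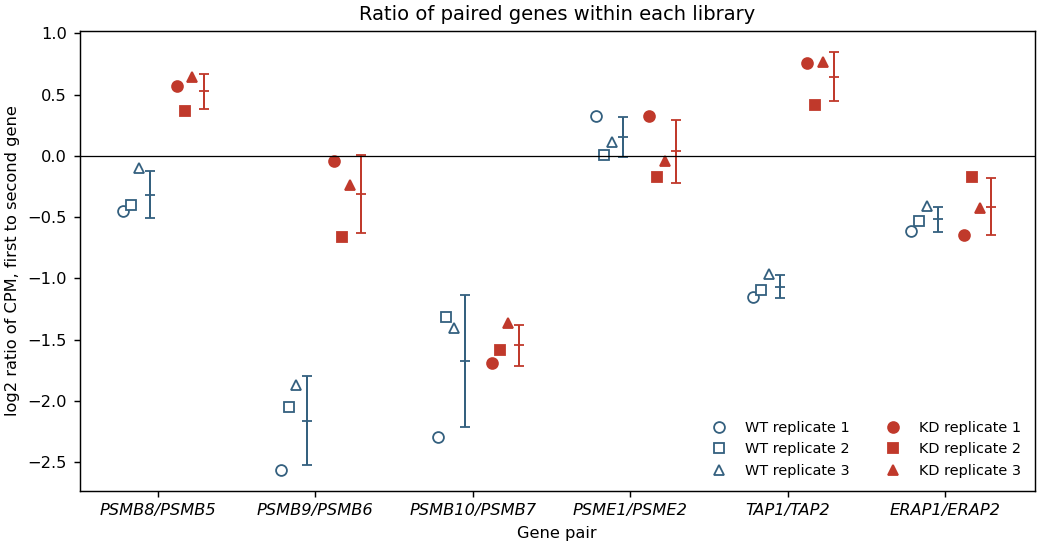
Log2 ratio of CPM between the genes of 6 pairs within each library, with open symbols for WT, filled symbols for KD and bars for the mean and SD of 3 libraries. The ratios of PSMB8 to PSMB5, PSMB9 to PSMB6 and TAP1 to TAP2 do not overlap between WT and KD, and the other 3 ratios do.

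The PA28 genes did not pass the threshold. PSME1 (ENSG00000092010, chromosome 14, 24605372 to 24608176) encodes the alpha chain of the cap and was at 68.5, 88.0 and 112 CPM in WT cells and 112, 104 and 124 CPM in KD. Its log2 fold change was 0.34 with a 95% interval from −0.15 to 0.83 (edgeR adjusted p = 0.553). PSME2 (ENSG00000100911, chromosome 14, 24612571 to 24616779) encodes the beta chain and was at 54.5, 87.4 and 104 CPM in WT cells and 89.5, 117 and 128 CPM in KD. Its log2 fold change was 0.45 with a 95% interval from −0.14 to 1.03 (edgeR adjusted p = 0.493).

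For both PA28 genes at least 1 KD library lay within the WT range. Within each replicate number, however, KD was above WT for both, by 0.71, 0.24 and 0.14 on the log2 scale for PSME1 and by 0.71, 0.42 and 0.30 for PSME2. With the replicate block the adjusted p from edgeR was 0.216 for PSME1 and 0.0829 for PSME2. The ratio of PSME1 to PSME2 overlapped between the conditions (exact permutation p = 0.5).

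The PA28 genes lie near IRF9, whose product binds the ISRE, though nearness does not make either its direct neighbour. The annotated ends leave 13.7 kb between PSME2 and IRF9, 22.3 kb between PSME1 and IRF9, and 4.39 kb between PSME1 and PSME2. IRF9 averaged 20.1 ± 1.27 CPM in WT cells and 127 ± 3.61 CPM in KD cells (SD, n = 3), a log2 fold change of 2.66 (SE 0.18, edgeR adjusted p = 6.49e-05). The 95% interval of IRF9 began at 2.25 on the log2 scale, above the upper ends of 0.83 for PSME1 and 1.03 for PSME2, and the difference between the genes was not tested. PSME2 shares 216 exonic bases on the opposite strand with RNF31, whose log2 fold change was 0.42 (edgeR adjusted p = 0.381). PSME1 shares 9 exonic bases on the opposite strand with EMC9, whose log2 fold change was −0.87 (edgeR adjusted p = 0.173).

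Tapasin, which holds class I molecules at the transporter and edits their peptides, is encoded by TAPBP (ENSG00000231925, chromosome 6, 33267471 to 33282061). It was at 127, 322 and 217 CPM in WT cells and at 206, 362 and 290.3 CPM in KD. The conditions overlapped, and WT replicate 2 was above 2 of the KD libraries. Between libraries with the same number, KD was above WT each time, by 0.70, 0.17 and 0.42 on the log2 scale. The log2 fold change was 0.37 with a 95% interval from −0.38 to 1.12 (edgeR adjusted p = 0.721), and it ran from 0.08 to 0.73 when libraries were left out. With the replicate block the estimate was 0.43 (SE 0.15, edgeR adjusted p = 0.113). TAPBP lies 446 kb from TAP1, within the same MHC region.

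The trimming enzymes had the lowest levels per kilobase of transcript. ERAP1 (ENSG00000164307, chromosome 5, 96096514 to 96143803), which cuts longer peptides to size, was at 31.99, 26.5 and 27.0 CPM in WT cells and 42.5, 34.3 and 42.0 CPM in KD. All KD libraries were above all WT libraries, by a small margin. Its log2 fold change was 0.47 with a 95% interval from 0.01 to 0.94, and it did not pass adjustment over all genes (unadjusted p = 0.0460, edgeR adjusted p = 0.326). ERAP1 shares 299 exonic bases on the opposite strand with CAST, whose log2 fold change was 0.07.

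ERAP2 (ENSG00000164308, chromosome 5, 96211690 to 96255407), a related aminopeptidase whose gene lies 67.9 kb from ERAP1, was at 49.1, 38.4 and 35.8 CPM in WT cells and 66.3, 38.7 and 56.3 CPM in KD. KD replicate 2 lay within the WT range. The log2 fold change was 0.39 with a 95% interval from −0.16 to 0.94 (edgeR adjusted p = 0.546). The log2 ratio of ERAP1 to ERAP2 overlapped between the conditions (exact permutation p = 0.7).

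**Figure D4:**
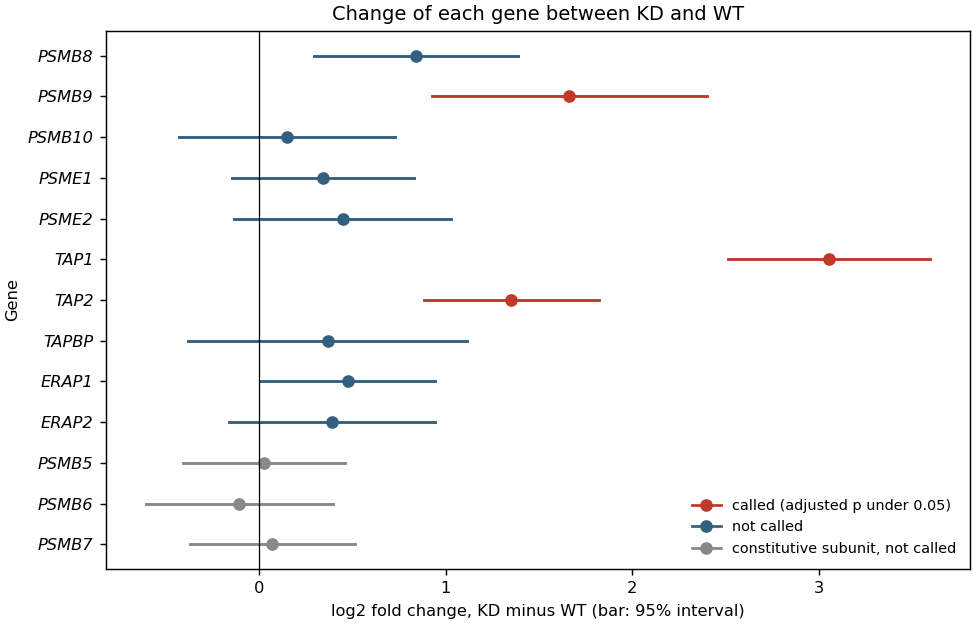
Log2 fold change (KD minus WT) of the 10 genes and of the 3 constitutive catalytic subunits, with 95% intervals from edgeR's fit. PSMB9, TAP1 and TAP2 were called, at 1.66, 3.06 and 1.35, and the constitutive subunits lie within 0.11 of 0.

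Across the 10 genes the order of levels shifted. Per kilobase of canonical transcript, PSMB8 led in WT at 124 ± 39.98 CPM, followed by PSME2, PSMB10, PSME1, PSMB9 and TAPBP, which ran down to 64.4 ± 28.3 CPM (SD, n = 3). Each of these overlapped its neighbour in the order. TAP1 and TAP2 came next, below TAPBP without overlap, and ERAP2 and ERAP1 were last at 8.01 ± 1.37 and 5.89 ± 0.627 CPM per kilobase (SD, n = 3). In KD, PSMB9 at 226 ± 32.01, PSMB8 at 221 ± 20.9 and TAP1 at 208 ± 30.7 CPM per kilobase (SD, n = 3) formed the top and overlapped each other. TAP1 thus stood 7th in WT and 3rd in KD, and PSMB9 5th in WT and 1st in KD. ERAP1 remained the lowest in both conditions, though it overlapped ERAP2 in KD.

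TAP1 and PSMB9, whose RefSeq starts are 488 bases apart, had different estimates. The GENCODE span of PSMB9 given above starts farther upstream and covers TAP1, so the annotations differ in where PSMB9 begins. The log2 ratio of TAP1 to PSMB9 CPM was 0.40, −0.06 and −0.40 in WT and 1.00, 1.41 and 1.42 in KD. This pair was chosen after its values were seen, so the ratio is given with no test. All 5 members on chromosome 6 lie in the MHC region, where TAP2, PSMB8, PSMB9 and TAP1 are neighbours. The 3 called genes and PSMB8 all belong to this cluster, and the 5 members on other chromosomes were not called.

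The remaining proteasome genes were not called. They comprised 11 other subunits of the 20S core, 18 subunits of the 19S cap, 6 assembly factors and 3 other activators or inhibitors. Of these 38 genes, edgeR called 0 without or with the replicate block, as did DESeq2 and limma-voom. Over all tested genes these called 2.59%, 9.52%, 6.33% and 2.64% in either direction, in that order. The 0 of 38 thus lies near the share of the main test. Of the 38, 1 had an unadjusted edgeR p under 0.05. This was PSMB3, a structural core subunit, at a log2 fold change of −0.50. The median log2 fold change was −0.09 for the other 20S subunits, −0.06 for the 19S subunits, 0.06 for the assembly factors and 0.09 for the other activators or inhibitors, beside −0.03 over all tested genes. POMP, which helps to assemble new immunoproteasomes, was at 118 ± 25.9 CPM in WT cells and 119.8 ± 8.19 CPM in KD cells (SD, n = 3).

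Of 9 other genes of the loading complex and its chaperones, 4 were called higher and 0 lower by edgeR. This stands beside 1.75% of all tested genes called higher. The median log2 fold change of the 9 was 0.54. Among those called were B2M, the light chain of class I molecules, with a log2 fold change of 2.16, and the heavy chains HLA-B (2.88) and HLA-C (1.92). Reads can be divided between the heavy chain genes, which are much alike. The general chaperones of the complex were not called: CALR had a log2 fold change of 0.11, PDIA3 0.12 and CANX −0.33. UGGT1, which checks the folding of glycoproteins and of class I molecules, was at 146 ± 20.7 CPM in WT cells and 86.9 ± 29.6 CPM in KD cells (SD, n = 3), and its adjusted p from edgeR was 0.217 without and 0.0316 with the replicate block.

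Beside 1.75% of all tested genes called higher, LAP3 was the only called gene among 7 other peptidases that can trim such peptides. Their median log2 fold change was −0.13. LAP3 was called higher. This cytosolic leucine aminopeptidase went from 48.0 ± 5.63 CPM in WT to 167 ± 14.7 CPM in KD cells (SD, n = 3), a log2 fold change of 1.80 (edgeR adjusted p = 0.0011). NPEPPS, another cytosolic aminopeptidase, was at 88.3 CPM in both conditions. LAP3 thus had a larger estimate than ERAP1 or ERAP2, a difference that was not tested.

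Among 9 transcription factors and coactivators known to act on these genes the median log2 fold change was 1.04. Of these, 4 were called higher, beside 1.75% of all tested genes. Among those called were STAT2 (log2 fold change 1.94), IRF9 (2.66) and NLRC5, the coactivator of class I genes, which went from a mean of 19.2 to 125 CPM. IRF2 had a log2 fold change of 1.04 and was called with the replicate block (edgeR adjusted p = 0.0176) and not without it (0.0802). IRF1, which is known to drive the shared TAP1 and PSMB9 promoter, was at 53.2 ± 32.02 CPM in WT cells and 59.4 ± 18.7 CPM in KD cells (SD, n = 3), and its adjusted p from edgeR was 0.933. RELA, NFKB1 and RFX5 had log2 fold changes from 0.22 to 0.31 and were not called.

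**Figure D5:**
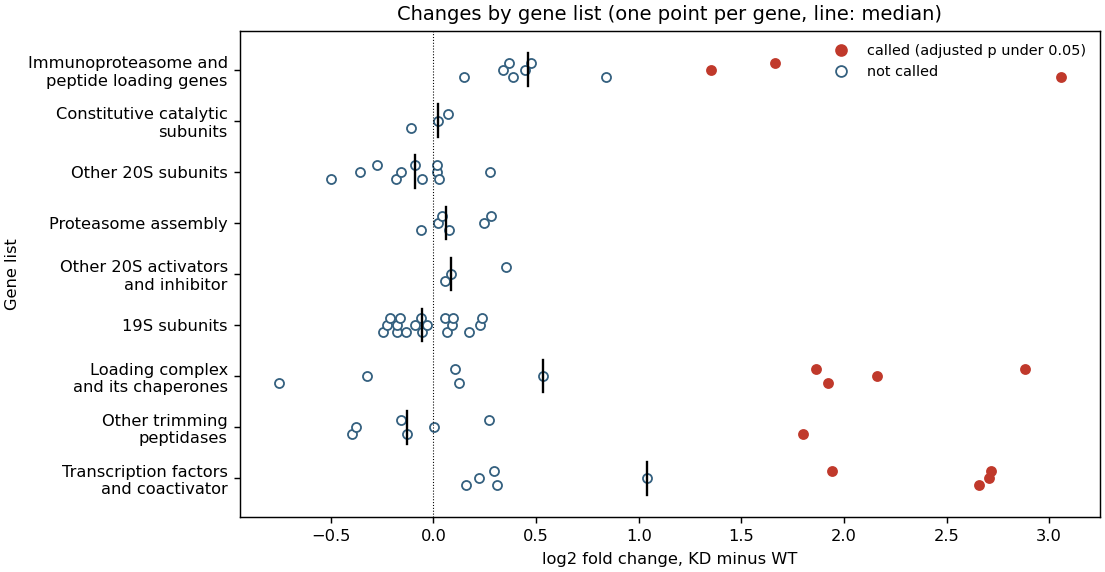
Log2 fold change (KD minus WT) of the 10 genes and of 66 genes in 8 related lists, a point per gene, filled where called at an adjusted p under 0.05, with a line at each list's median. The 9 called genes outside the 10 are in the loading complex, the peptidases and the transcription factors, and no 20S, 19S or assembly gene is filled.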

How the data were processed

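RNA-seq libraries of M14 cells, 3 WT and 3 KD, were grouped by their labels, which do not say whether they came from separate cultures, so p-values measure the spread between these libraries. The authors mapped single reads of directional polyA libraries to hg19 with STAR and deposited expected counts per gene from RSEM, not scaled. RSEM divides reads that match several genes. Gene symbols were read from the row names, and the row with the largest total was kept where a symbol repeated. Counts were rounded, filtered by filterByExpr (15605 genes), scaled by TMM and tested with edgeR 4.0.16 (quasi-likelihood, R 4.3.3), p adjusted by Benjamini-Hochberg across the tested genes, with a threshold of 0.05. CPM are counts in every 1000000 of the TMM-scaled library size. Standard errors and 95% intervals come from this fit. The study's own differential test, run with RSEM, was not used. Ratios used CPM plus 0.1. Alternatives included DESeq2 1.42.0 and limma 3.58.1, and the edgeR, DESeq2 and limma-voom steps were tested on simulated data. Gene positions and lengths are from GENCODE 44 on GRCh37.

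The labels give both conditions replicate numbers 1 to 3. Deviations from the condition means correlated between same-numbered libraries over 11573 genes (r = 0.560, 0.395 and 0.327 for numbers 1, 2 and 3), which sets the pairing from the data, while the methods name none. Numbers 2 and 3 were less apart, since WT 2 with KD 3 gave 0.235 and WT 3 with KD 2 gave 0.191, while replicate 1 with the others ran from −0.460 to −0.370. The main test has no block.

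The 10 genes, the lists and the rule for naming genes were chosen with earlier results of these data known. All 10 genes, STAG2, the genes of the 6 pairs, called genes of the lists, except those not reported here, and overlapping or neighbouring genes are named; any other gene named, such as PMEL, POMP, PSMB3, NPEPPS or UGGT1, was chosen after its values were seen.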

Additional observations from a re-analysis of the deposited data

How the results depend on the processing

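TAP1 was called under every alternative run, with log2 fold changes from 2.89 to 3.20. The count over all genes was 404 and moved to 988 with DESeq2, 1103 with no filter on low counts, 1486 with the replicate block and 137 at an adjusted p under 0.01. It ran from 121 to 757 when libraries were left out. Of the 10 genes, 1 was called at an adjusted p under 0.01, and from 1 to 3 when libraries were left out. PSMB8 was called with DESeq2 (0.83), with no filter (0.83) and with the replicate block (0.88). Left-out libraries moved the log2 fold change of PSMB9 from 1.29 to 2.04, of PSMB10 from −0.09 to 0.37 (below 0 without WT replicate 1 and without replicate 1 of both conditions, at −0.092), of TAP2 from 1.22 to 1.47 and of STAG2 from −2.63 to −1.68, and calls of PSMB9, TAP2 and STAG2 were lost in some. The difference in log2 ratio ran from −0.19 to 0.30 for PSMB10 to PSMB7 and from −0.01 (−0.014, without KD replicate 2) to 0.22 for ERAP1 to ERAP2. The cause was not tested. Beside PSMB8, the replicate block changed the call of none of the 10 genes. The companion lists held from 9 to 11 called genes in either direction. In the main test this was 9 of 66, beside 2.59% of all tested genes. All 10 genes lay far above the floor of 3 counts, so the spread between 3 libraries, more than depth, sets the precision.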
